A study of Mus musculus with 30 samples.

Results

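Mechanosensitive ion channels are membrane proteins that let ions or small molecules cross the membrane when it is stretched, when the cell swells, or when cilia or adhesions are pulled. The RNA of 9 such genes was followed in tendon cells: Piezo1, Piezo2, Trpv4, Tmem63a, Tmem63b, Pkd1, Pkd2, Kcnk2 and Panx1. They were taken by gene name from a table of 35973 genes, and the sites that the authors had annotated to them were taken from 5 lists of differential chromatin sites, where they were 7 of 16367 sites. The cells were primary fibroblasts of mouse tail tendon with the genotype given as wildtype. They were grown in medium with 10% fetal bovine serum and treated in medium with 0.1% serum, a condition that all groups share. The groups received the solvent DMSO, blebbistatin at 10 µM, which blocks the motor activity of non-muscle myosin II, or the kinase inhibitor Y27632 at 30 µM. Poly(A) RNA was sequenced in 3 libraries per treatment, and chromatin accessibility by ATAC in 3 libraries per treatment. A further 12 genomic DNA libraries, 3 per group, came from cells given neither drug, blebbistatin at 10 µM, doxycycline at 10 ng/mL, or both. The labels do not say what doxycycline switches on in these cells, nor how long any treatment lasted, nor whether libraries of a group came from separate animals or cultures. The p-values therefore measure the spread between these libraries, which may be technical.

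Piezo1 and Piezo2 are large channels that pass calcium and other cations when the membrane is under tension; Piezo1 is known from tendon cells as a sensor of stretch and shear. Trpv4 is a calcium-permeable channel opened by swelling and by stretch, and Tmem63a and Tmem63b belong to a family of channels gated by high membrane tension. Pkd1 and Pkd2 encode polycystin 1 and polycystin 2, which assemble in the primary cilium. Kcnk2 encodes TREK-1, a potassium channel that opens under tension and holds the membrane near rest. Panx1 forms a large pore that releases ATP from stretched or swollen cells.

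RNA depth was 23375386 to 37061737 reads in genes per library. All 12 markers of tendon fibroblasts had a mean of at least 10 reads, and their summed level was 32161.6 to 34097.0 CPM in DMSO (reads scaled to the TMM library size), 30092.0 to 33268.3 with blebbistatin and 33801.6 to 35211.3 with Y27632. Most of this sum was Col1a1, Col1a2 and Col3a1. Of the 12 markers 5 rose and 4 fell with blebbistatin, and 7 rose and 1 fell with Y27632. All 6 immune markers were present too, and 5 of the 6 rose with each inhibitor. Their sum was 222.3 to 244.3 CPM in DMSO, 313.3 to 355.4 with blebbistatin and 319.1 to 361.1 with Y27632. The summed Schwann cell markers were 7.325 to 9.039 in DMSO, 13.24 to 14.42 with blebbistatin and 8.751 to 10.89 with Y27632. The 5 endothelial markers summed to 119.4 to 121.4, 75.44 to 84.47 and 107.2 to 114 in the same order. Nearly all of this was Tek, while Pecam1 had 4 to 19 reads and Tie1 at most 1. With blebbistatin the log2 change of Tek was -0.63, called by the test given below. Those of Cdh5 and Kdr were 0.30 and 0.60, in the other direction and not called. Cartilage markers summed to 7.541 to 9.189, 10.8 to 11.17 and 10.42 to 11.52, with Acan at 10 reads or fewer. Pericyte markers summed to 75.07 to 83.26, 85.16 to 97.08 and 82.52 to 103.2, nearly all of it Cspg4. With blebbistatin Cspg4 rose by 0.23 on the log2 scale and Rgs5 fell by 0.52, both called by the test given below. Kcnj8 had at most 9 reads and Abcc9 at most 11. Adipocyte markers summed to 9.861 to 11.31, 9.845 to 11.42 and 6.619 to 7.932, and skeletal muscle markers to 1.27 to 1.56, 0.5518 to 1.186 and 0.9318 to 1.313, with Ckm and Myod1 at 0. Keratinocyte markers summed to at most 3.277 in every library. The part of these cells in the results below was not tested.

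Under blebbistatin 8 of the 9 channel genes changed, 3 upward and 5 downward. Panx1, Tmem63b and Piezo1 rose, and Piezo2, Trpv4, Kcnk2, Tmem63a and Pkd2 fell. The largest change was in Piezo2, which fell by 54.6%. Each gene was tested with limma on log2(normalised count + 1), and called at a Benjamini-Hochberg adjusted p under 0.05. The same test called 53.0% of all genes tested, 26.1% as higher and 26.9% as lower. The median absolute log2 change was 0.39 over the 9 channel genes and 0.22 over all genes tested. Groups did not overlap for 8 of the 9 genes, against 60.2% of all genes. All 9 passed the filter of a mean normalised count of at least 10. In bulk RNA, fewer cells of a type and less RNA per cell cannot be told apart.

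**Figure D1:**
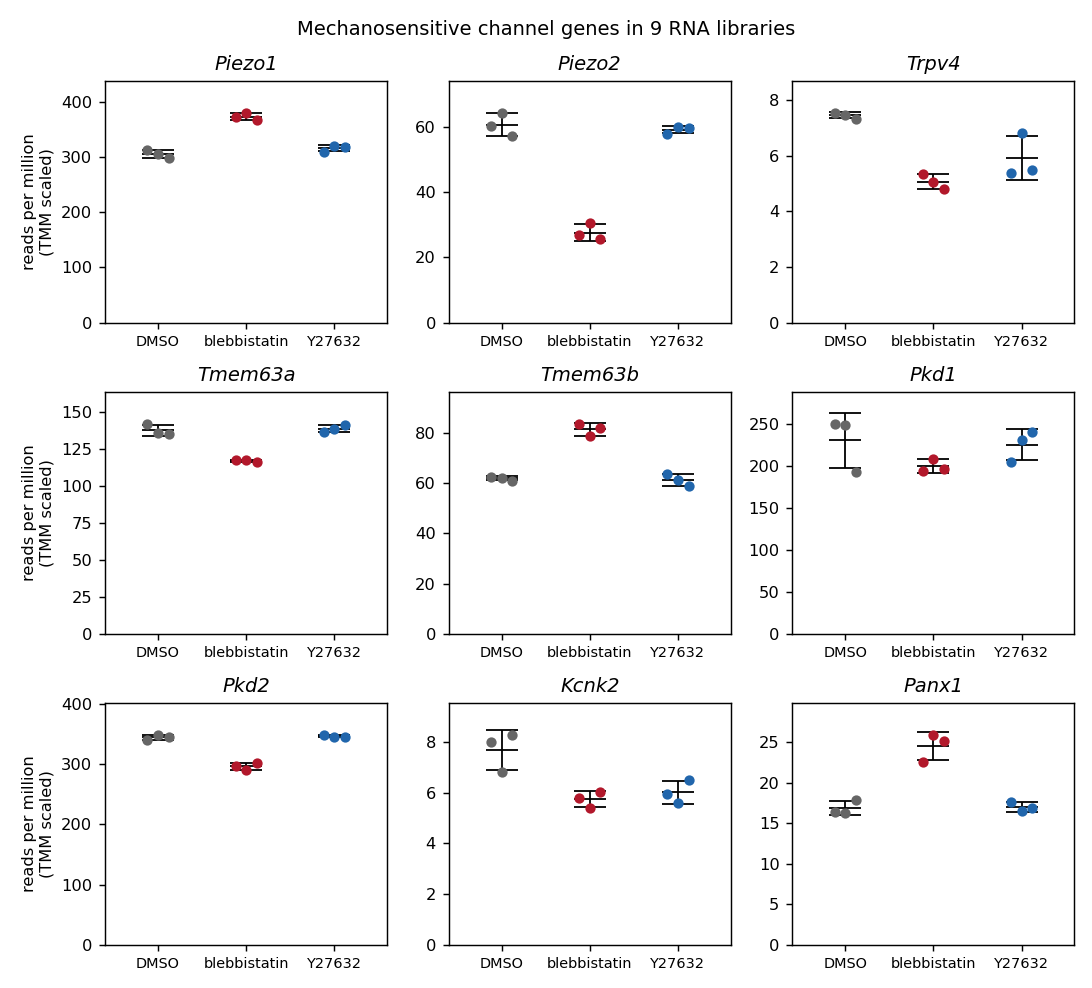
CPM (TMM scaled, linear axis from 0) of each channel gene in every RNA library; points are libraries, and the long bars are the mean with 1 SD on either side, n = 3. Piezo2 lies at 25.49 to 30.43 in the blebbistatin libraries and at 57.3 to 64.41 in the DMSO libraries, while Pkd1 has 1 DMSO library at 192.9 beside others at 249.1 and 250.6.

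The Piezo genes moved in opposite directions. Piezo2 had 1605.5, 1713.2 and 1518.7 normalised counts in the DMSO libraries and 713.6, 801.6 and 679 in the blebbistatin libraries. The lowest DMSO library lay well above the highest blebbistatin library. The means were 1612.4 ± 97.43 and 731.4 ± 63.23 (SD, n = 3), a ratio of 0.454. The log2 change was -1.14 with a standard error of 0.065 (95% interval -1.28 to -1.0, adjusted p = 2.01e-08, limma). Piezo1 had 8289.7, 8106.9 and 7909.3 counts in DMSO and 9893.9, 10013.3 and 9758.3 with blebbistatin. Every blebbistatin library was above every DMSO library. Its mean rose by 22.1%, with a log2 change of 0.29 and a standard error of 0.030 (adjusted p = 5.49e-06, limma). The counts of both genes are not compared with each other, because no transcript lengths were used. RefSeq places Piezo2 at chr18:63010213-63387716 and Piezo1 at chr8:122481698-122551329 on the minus strand of GRCm38.p6, the build that mm10 names. Its span overlaps that of Ctu2, a tRNA-modifying enzyme, by 1395 bases. Ctu2 fell by 0.59 on the log2 scale (adjusted p = 7.76e-06, limma). Whether the authors counted by strand is not given in the sources used here.

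Trpv4, at chr5:114622152-114658435, fell under blebbistatin. It had 200.6, 198.6 and 194.1 normalised counts in DMSO and 142.3, 133.2 and 127.7 with blebbistatin. The DMSO libraries were within a narrow range and all lay above the blebbistatin libraries. The mean fell by 32% and the log2 change was -0.56 with a standard error of 0.095 (95% interval -0.76 to -0.35, adjusted p = 3.35e-04, limma). Trpv4 rested on 137 to 212 reads per library over the 9 RNA libraries. Kcnk2, at chr1:189207930-189402782 and with 148 to 218 reads per library, is the other gene of low count. Its values were 212.5, 180.9 and 219.4 normalised counts in DMSO and 153.7, 142.2 and 160.8 with blebbistatin. The second DMSO library was the lowest of its group and still above all 3 blebbistatin libraries. The mean of Kcnk2 fell by 25.5%, with a log2 change of -0.42 and a standard error of 0.105 (adjusted p = 0.00507, limma).

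The Tmem63 genes, which encode close relatives, also went opposite ways. Tmem63b, at chr17:45660172-45686343, had 1666.1, 1658.0 and 1620.9 counts in DMSO and 2229.1, 2076.0 and 2192.2 with blebbistatin. The groups did not overlap, and the mean rose by 31.4%. Its log2 change was 0.39 with a standard error of 0.040 (adjusted p = 3.73e-06, limma). Tmem63a, at chr1:180942286-180975106, had 3777.0, 3609.5 and 3581.9 counts in DMSO and 3116.2, 3088.1 and 3088.9 with blebbistatin. The blebbistatin libraries were close together and below every DMSO library. Its mean fell by 15.3%, with a log2 change of -0.24 and a standard error of 0.034 (adjusted p = 7.10e-05, limma). The span of Tmem63b overlaps by 622 bases that of Mrpl14, a mitochondrial ribosomal protein gene whose log2 change was 0.11 (adjusted p = 0.226, limma).

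Of the polycystins, Pkd2 fell and Pkd1 was not called. Pkd2, at chr5:104453982-104505819, had 9060.1, 9278.5 and 9153.4 counts in DMSO and 7891.3, 7660.3 and 8035.6 with blebbistatin, with no overlap. Its mean fell by 14.2% and the log2 change was -0.22 with a standard error of 0.030 (adjusted p = 5.63e-05, limma). Pkd1, at chr17:24548689-24596514, had 6660.3, 6624.3 and 5112.0 counts in DMSO and 5154.2, 5506.1 and 5234.3 with blebbistatin. The third DMSO library was below all 3 blebbistatin libraries, so the groups overlapped. The coefficient of variation of Pkd1 in DMSO was 14.4%, the highest of the 9 genes in that group. Its log2 change was -0.20 (95% interval -0.37 to -0.026, adjusted p = 0.0517, limma). Without the third DMSO library it was -0.33 with an adjusted p of 1.66e-05, and 9 of the 9 channel genes were called. Without the second blebbistatin library the Pkd1 value was -0.23 with an adjusted p of 0.034. It was -0.14 without the first DMSO library (adjusted p = 0.218, limma) and -0.14 without the second (adjusted p = 0.209). Without the first or the third blebbistatin library it was -0.18 (adjusted p = 0.149) or -0.19 (adjusted p = 0.108). Pkd1 overlaps by 699 bases Tsc2, a brake on growth signalling that rose by 0.10 on the log2 scale (adjusted p = 0.027, limma).

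Panx1, at chr9:15005785-15045478, had the largest rise among the channel genes. It had 436.9, 433.5 and 474.4 normalised counts in DMSO and 599.3, 683.2 and 669.8 with blebbistatin. All 3 blebbistatin libraries were above the DMSO libraries. The mean rose by 45.2%, from 448.3 ± 22.72 to 650.8 ± 45.05 (SD, n = 3). The log2 change was 0.54 with a standard error of 0.067 (95% interval 0.39 to 0.68, adjusted p = 2.73e-05, limma).

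Y27632 lowered Kcnk2 and Trpv4, and none of the other 7 channel genes passed the test. The 2 called of 9 compare with 35.9% of all genes called in this contrast, 18.1% higher and 17.8% lower. The groups did not overlap for these same 2 genes, against 48.1% of all genes tested. Values here come from a table that the authors had scaled separately, so the same DMSO libraries have other normalised counts. Kcnk2 had 220.9, 187.8 and 228 counts in DMSO and 163.9, 154.1 and 179.2 with Y27632. The highest Y27632 library was below the lowest DMSO library by a small margin. Its mean fell by 21.9% and the log2 change was -0.35 with a standard error of 0.104 (95% interval -0.58 to -0.13, adjusted p = 0.0178, limma). Trpv4 had 208.5, 206.1 and 201.8 counts in DMSO and 148.1, 187.7 and 152 with Y27632. The second Y27632 library lay nearer to DMSO than the others, and the groups did not overlap. Its mean fell by 20.9%, with a log2 change of -0.34 and a standard error of 0.105 (95% interval -0.57 to -0.12, adjusted p = 0.0217, limma).

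Both of these calls depended on single libraries. Kcnk2 was not called without the first DMSO library (adjusted p = 0.0613, limma), without the third DMSO library (adjusted p = 0.0668) or without the second Y27632 library (adjusted p = 0.0682). Trpv4 was not called without the first DMSO library (adjusted p = 0.0591), the second DMSO library (adjusted p = 0.0555), the first Y27632 library (adjusted p = 0.0848) or the third Y27632 library (adjusted p = 0.0772). Without the first DMSO library, 0 of the 9 genes were called. The direction stayed downward in each of these fits. In the authors' deposited table, Kcnk2 had an adjusted p of 0.0457 and Trpv4 of 0.0695 under Y27632, and the same 8 genes as here were under 0.05 with blebbistatin.

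The other 7 genes stayed within narrow intervals under Y27632. Piezo2 had 1669.1, 1778.5 and 1578.2 counts in DMSO and 1589.9, 1652.4 and 1648.8 with Y27632. The Y27632 libraries lay inside the range of DMSO. The 95% interval of its log2 change was -0.14 to 0.062, which leaves out a fall of the size seen with blebbistatin. For Piezo1 the interval was -0.019 to 0.11, for Panx1 -0.12 to 0.15 and for Tmem63b -0.10 to 0.064. For Tmem63a it was -0.063 to 0.083 and for Pkd2 -0.056 to 0.063. Pkd1 had the widest interval, -0.21 to 0.16; without the third DMSO library its log2 change was -0.15 with an adjusted p of 0.0431 (limma). The median absolute log2 change was 0.030 over the 9 channel genes and 0.14 over all genes tested. The summed immune markers were above DMSO with both inhibitors, and the summed Schwann cell markers were above DMSO without overlap only with blebbistatin; the part of either in these values was not tested.

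**Figure D2:**
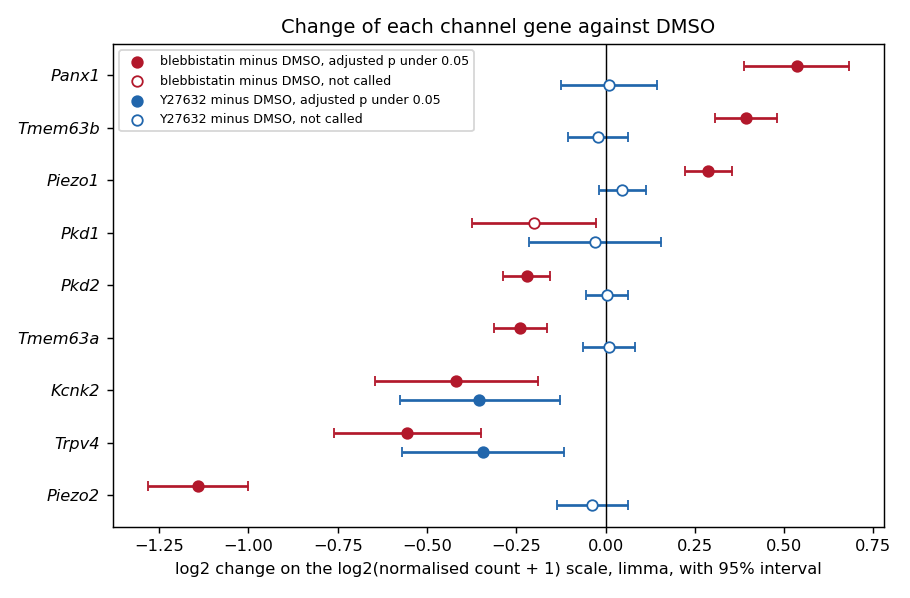
Log2 change of each channel gene against DMSO (x axis, limma on log2(normalised count + 1)), with bars for the 95% interval and filled points for an adjusted p under 0.05; genes are ordered by their change with blebbistatin. Piezo2 is at -1.14 with blebbistatin and -0.038 with Y27632, and only Kcnk2 and Trpv4 have a filled point for both inhibitors.

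The inhibitors were then compared with each other, because both contrasts above share the 3 DMSO libraries. The recovered reads of the 9 libraries were fitted together with edgeR. Of the 9 channel genes, 6 differed between blebbistatin and Y27632, 3 higher and 3 lower with blebbistatin, against 53.1% of all genes tested, 26.9% higher and 26.2% lower. Groups did not overlap for these 6 and for Trpv4, against 60.6% of all genes. Piezo2 had a mean of 60.7 CPM in DMSO, 27.58 with blebbistatin and 59.13 with Y27632, and its log2 difference between the inhibitors was -1.09 (adjusted p = 2.79e-09, edgeR). Panx1 had means of 16.88, 24.54 and 17.01 in the same order, a difference of 0.54 (adjusted p = 4.96e-06). Tmem63b had means of 62.06, 81.64 and 61.27, a difference of 0.42 (adjusted p = 6.45e-07). For all 3 genes the blebbistatin libraries stood apart from both other groups.

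Piezo1 differed between the inhibitors by 0.25 on the log2 scale (adjusted p = 4.10e-06, edgeR), Tmem63a by -0.24 (adjusted p = 1.73e-05) and Pkd2 by -0.21 (adjusted p = 1.69e-05). The genes that both inhibitors lowered were not told apart by this test. Trpv4 had 5.352, 5.055 and 4.794 CPM with blebbistatin and 5.388, 6.812 and 5.493 with Y27632. The blebbistatin libraries were the lower ones, by a small margin, and the difference of -0.21 was not called (adjusted p = 0.115, edgeR). It was -0.092 without the second Y27632 library and between -0.277 and -0.18 without any other single library that received an inhibitor. Kcnk2 had 5.782, 5.399 and 6.036 with blebbistatin and 5.962, 5.591 and 6.478 with Y27632, with overlapping groups and a difference of -0.054 (adjusted p = 0.685). With 1 library left out the Kcnk2 difference ranged from -0.103, without the third blebbistatin library, to -0.002, without the third Y27632 library. It was -0.102 without the second Y27632 library and -0.009 without the second blebbistatin library. An adjusted p above the threshold does not show that the inhibitors act alike on these genes. Pkd1 differed by -0.16 (adjusted p = 0.113). Its adjusted p was 0.0136 without the third DMSO library, and without the first Y27632 library the difference was -0.23 with an adjusted p of 0.0378.

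Other genes shared the pattern of single channel genes across the 9 libraries. Among 11465 genes with a mean of at least 100 reads, the 2 of highest Pearson correlation with each called channel gene were named; these correlations describe libraries in 3 groups and carry no test. Piezo2 was most like Pkdcc, a secreted tyrosine kinase (r = 0.9966), and Mn1, a transcriptional co-regulator (r = 0.9962). Pkdcc fell by 1.28 and Mn1 by 1.25 on the log2 scale with blebbistatin, and their values with Y27632 were -0.055 and -0.11. Piezo1 was most like Mrps18a (r = 0.9956) and Palm (r = 0.9954), and Panx1 most like Tspan11 (r = 0.9853) and Mrgbp (r = 0.9843). Tmem63a was most like Ptprm (r = 0.9968) and Megf6 (r = 0.9959), Tmem63b like Cobll1 (r = 0.9968) and Fnbp1 (r = 0.9957), and Pkd2 like Zfp131 (r = 0.9959) and Blzf1 (r = 0.9946). For the genes that fell with both inhibitors the likeness was lower. They were also the channel genes with the fewest reads per library, 137 to 212 for Trpv4 and 148 to 218 for Kcnk2. The part of read number in this was not tested. Trpv4 was closest to Avpi1 (r = 0.9755) and Sars (r = 0.9743), and Kcnk2 to Pfkl (r = 0.9644) and Phactr4 (r = 0.9528).

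Promoter sequence was read for the 250 bases before each annotated start from RefSeq (GRCm38.p6), which gave 11 windows for 8 channel genes, 4 of them for Kcnk2. Each window was searched on both strands for GGAATG, the core bound by the Tead partners of Yap and Taz, for TGANTCA, the site of AP-1 factors, and for the CArG box, the site of Srf. The 3 windows below are those of called genes that held a Tead core or a CArG box, shown 5′ to 3′ on the strand of the gene with the match in capitals.
Pkd2 at chr5:104459207-104459456, plus strand: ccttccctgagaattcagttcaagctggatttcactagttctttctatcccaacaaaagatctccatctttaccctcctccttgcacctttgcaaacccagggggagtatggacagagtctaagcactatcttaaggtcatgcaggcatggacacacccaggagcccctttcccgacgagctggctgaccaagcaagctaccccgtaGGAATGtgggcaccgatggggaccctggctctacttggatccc
Kcnk2, the outermost of its windows, at chr1:189402274-189402523, minus strand: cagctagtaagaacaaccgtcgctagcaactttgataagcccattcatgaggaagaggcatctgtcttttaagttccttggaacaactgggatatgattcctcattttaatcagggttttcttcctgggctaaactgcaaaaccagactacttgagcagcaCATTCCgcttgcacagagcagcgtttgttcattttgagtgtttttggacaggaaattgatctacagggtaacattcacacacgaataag
Tmem63a at chr1:180942268-180942517, plus strand: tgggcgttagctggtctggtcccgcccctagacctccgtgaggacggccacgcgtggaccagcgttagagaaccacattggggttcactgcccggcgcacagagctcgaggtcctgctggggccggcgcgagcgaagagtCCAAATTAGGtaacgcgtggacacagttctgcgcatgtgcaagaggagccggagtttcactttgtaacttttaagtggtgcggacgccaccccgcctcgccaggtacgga
The match in Pkd2 begins 43 bases before the annotated start. That start lies inside the Pkd2 span, which begins at chr5:104453982. In Kcnk2 the core lies on the opposite strand, so that it reads CATTCC, and begins 89 bases before the start. GGAATG was found in 12.6% of all 32851 windows of this length. The CArG box of Tmem63a begins 110 bases before the start, and 1.47% of all windows held one. A second Kcnk2 window, at chr1:189344193-189344442, held TGANTCA, which 6.75% of all windows held. No match was found in the windows of Piezo1, Trpv4, Tmem63b, Pkd1 and Panx1, which says only that these letters are not in those 250 bases.

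Chromatin sites annotated to the channel genes appeared in the doxycycline experiment and in neither ATAC list of the DMSO comparisons. Those ATAC lists held 970 sites for blebbistatin and 207 for Y27632. The lists of the doxycycline experiment were larger. They held 1231 sites for blebbistatin without doxycycline, 7613 for doxycycline alone and 6346 for blebbistatin with doxycycline. Of these, 1, 4 and 2 were annotated to channel genes, beside 7 of 16367 over all 5 lists. The part of list size in this difference between experiments was not tested. All site values are the authors' log2 group means without replicate values, so no spread is given, and the lists hold only sites past the authors' thresholds. Listed sites have an FDR of at most 0.05 and, in the doxycycline experiment, an absolute log2 fold of at least 1. The depth behind them is unknown. The authors' annotation assigned each site to a nearby start. Coordinates are in mm10, per the submitters' processing notes.

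A site annotated to Piezo2 stood in both blebbistatin lists of the doxycycline experiment, but not in the ATAC list of blebbistatin against DMSO. At chr18:63460623-63460882 the log2 signal was 5.99 in cells given neither drug and 4.73 with blebbistatin alone, a log2 fold of -1.26 (the authors' FDR 0.00366). In the presence of doxycycline the site at chr18:63460637-63460882 went from 6.49 to 5.27 with blebbistatin, a log2 fold of -1.22 (the authors' FDR 0.00407). The sites share 246 bases, which is 100% of the shorter one. The site is intergenic, within a remnant of an endogenous retrovirus, and lies at -73570 bases from the start (upstream) in the authors' annotation. Of all sites in these lists 99.0% and 99.8% were lower with blebbistatin, so the direction is that of nearly every listed site. The fall of Piezo2 RNA with blebbistatin was measured in libraries outside the doxycycline experiment. A further site, inside the Piezo2 span but annotated to its neighbour Napg, was higher with doxycycline (log2 fold 1.14, the authors' FDR 4.48e-05).

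Kcnk2 had 4 listed sites, which lie 127706 to 152326 bases from the start in the authors' annotation. With doxycycline alone 3 sites were higher than with neither drug. At chr1:189215568-189215726, in intron 6 of 6, the log2 signal went from 4.79 to 5.79, a log2 fold of 1.01 (the authors' FDR 0.00255). At chr1:189196278-189196586 and chr1:189190939-189191115, which lie 11343 and 16814 bases beyond the end of the gene, it went from 5.38 to 6.73 (log2 fold 1.35) and from 4.71 to 5.92 (log2 fold 1.21). With doxycycline present, blebbistatin lowered a site at chr1:189215176-189215511 in the same intron from 7.74 to 6.74, a log2 fold of -1.0 (the authors' FDR 2.52e-09). That site ends 56 bases from the intronic site that was higher with doxycycline. The fold of the lowered site was at the authors' threshold, and 100% of its list had an absolute fold at least as large. For the intronic site that was higher with doxycycline this share was 95.7% of its list. Piezo1 had 1 listed site, at chr8:122558911-122559288, which is intergenic and at -7771 bases from the start (upstream). Its log2 signal was 6.41 with neither drug and 7.44 with doxycycline, a log2 fold of 1.03 (the authors' FDR 5.39e-05). An absolute fold at least as large was found in 88.2% of that list. In the doxycycline list 95.8% of the sites were higher, and Piezo1 and Kcnk2 follow that direction. No RNA library of this series received doxycycline, so RNA of Piezo1 and Kcnk2 with doxycycline is not known here.

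**Figure D3:**
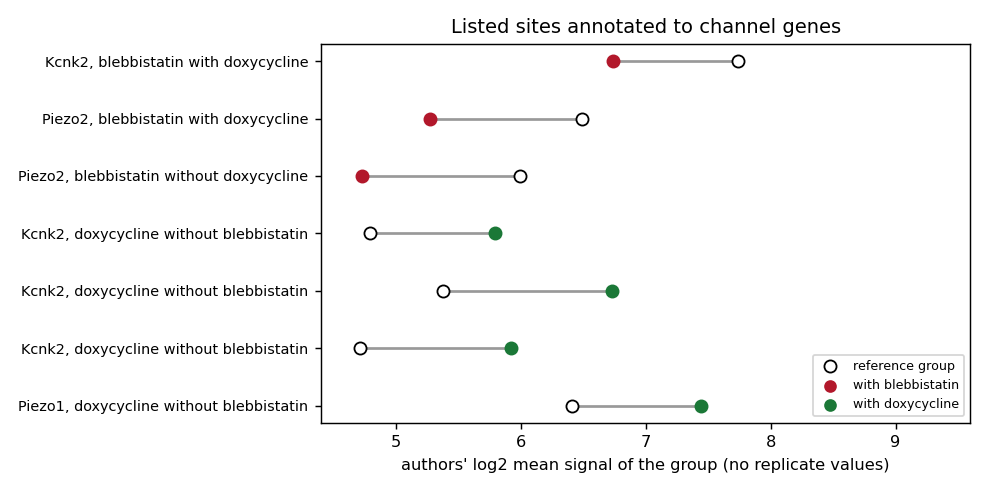
The authors' log2 mean signal (x axis) at the 7 listed sites annotated to channel genes, with open circles for the reference group and filled circles for the group given blebbistatin or doxycycline; there are no replicate values. Blebbistatin sites have log2 folds of -1.26 to -1.0 and doxycycline sites of 1.01 to 1.35.

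Genes that work with these channels were then counted in 8 lists, each beside the 53.0% of all genes called with blebbistatin and the 35.9% called with Y27632. Some genes, such as Atp2a2 and Kcnk10, stand in several lists, so the counts are not separate. Proteins that bind or modulate the Piezo channels had 7 tested members of 10. With blebbistatin 2 rose and 4 fell. Among those of adequate level, Mdfi, a relative of the Piezo subunit Mdfic, rose by 0.42, Ctnnb1, the beta-catenin of cell junctions, rose by 0.32, and Cdh2, the cadherin of fibroblast junctions, fell by 0.34 on the log2 scale. With Y27632 3 fell and 0 rose, among them the calcium pump Atp2a2 (-0.39) and Mdfic (-0.18). Atp2a2 (-0.267) and Mdfic (-0.265) were also called lower with blebbistatin. The list's median log2 change was -0.22 with blebbistatin, beside 0.002 over all genes tested.

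The partners of the polycystins in folding, trafficking and the cilium had 19 tested genes. With blebbistatin 5 rose and 6 fell. Bbs4, a part of the ciliary coat complex, rose by 0.48, while the endoplasmic reticulum chaperone Dnajb11 fell by 0.41 and the translocon subunit Sec61b fell by 0.40. With Y27632 5 rose and 3 fell, with Arl13b, a ciliary membrane GTPase, up by 0.35 and Tulp3, a carrier of receptors into the cilium, down by 0.32. The median log2 change was 0.062 with blebbistatin and 0.069 with Y27632.

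Calcium entry, release and pumping had 20 tested genes, of which 7 rose and 9 fell with blebbistatin, and 3 rose and 7 fell with Y27632. The release channel Ryr3 rose with both, by 1.0 and 1.51. The sodium-calcium exchanger Slc8a1 rose by 0.94 and the plasma membrane pump Atp2b4 fell by 0.87 with blebbistatin. Of 23 tested genes of calmodulin, calcineurin and NFAT signalling, 7 rose and 7 fell with blebbistatin, among them the kinase Camk1d (1.24) and the calcineurin regulator Rcan1 (0.73), both higher. With Y27632 2 rose and 5 fell, and Camkk1 fell by 0.39.

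The list that follows on Panx1, extracellular ATP and adenosine signalling, had 21 tested genes of 30 with blebbistatin. Of these 8 rose and 1 fell, a share called below the 53.0% of all genes, and the median log2 change was 0.31. Enpp1, an enzyme that splits extracellular ATP, rose by 1.14, the ATP-gated channel subunit P2rx6 by 1.05 and the ATP-gated channel P2rx7 by 0.90. With Y27632 3 of 20 rose and 3 fell: P2rx5 fell by 0.62, and Nt5e, which makes adenosine, rose by 0.56.

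Among 26 tested genes for other proposed mechanically or swelling-gated channels, 10 rose and 3 fell with blebbistatin, and 8 rose and 4 fell with Y27632. Tmc7, a relative of the hair cell channel, rose with both, by 1.01 and 1.16. Kcnj2, an inward rectifier potassium channel, fell by 0.56 with blebbistatin and rose by 0.72 with Y27632. Of 9 tested Trp channels other than Trpv4 and Pkd2, 6 rose and 2 fell with blebbistatin, and 3 rose and 1 fell with Y27632. Trpc1, Trpm3, Trpm4, Trpm7 and Trpv2 are counted both here and among the other proposed mechanically gated channels. The lysosomal channel Mcoln1 rose with both inhibitors, by 0.75 and 0.27. Its relative Mcoln3, at 25 to 86 reads, fell with both, by 1.77 and 1.29. Of the other Kcnk potassium channels 5 of 13 were tested, of which 0 rose and 3 fell with blebbistatin, Kcnk6 by 0.82, and 1 rose with Y27632.

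**Figure D4:**
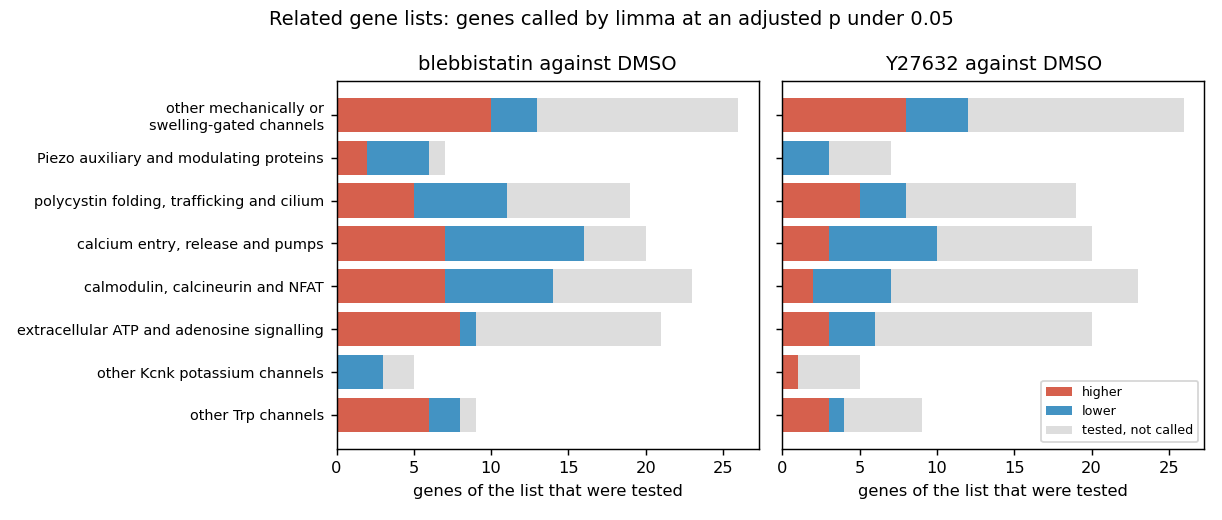
Number of tested genes in each of the 8 related lists (x axis, from 0) that limma called higher (red), lower (blue) or did not call (grey) at an adjusted p under 0.05, with blebbistatin on the left and Y27632 on the right. Some genes stand in several lists. In extracellular ATP and adenosine signalling 8 genes are higher and 1 lower with blebbistatin, and 3 are higher and 3 lower with Y27632.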

How the data were processed

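RNA was measured in 9 libraries and chromatin in 21, of which only the authors' site lists were used. Per the submitters' processing notes, HISAT2, Picard, featureCounts, DESeq2, Bowtie2, SAMtools, MACS2, DiffBind and HOMER and the build mm10 were used; versions, strand and annotation are not given in the sources used here. RNA values were deposited as a signal, namely gene counts scaled by a size factor of each library, and the scaling differs between the 2 tables. The values show this: 100% came out as whole reads within 0.01, and DMSO reads differed between tables in 0 of 35972 genes. The log2 fold changes and adjusted p-values of the authors' deposited tables are quoted only where named. Per the file headers, each site list gives log2 group means, a log2 fold, a p-value, an FDR and a distance to the nearest start, all deposited by the authors. The doxycycline list has a reference column headed blebbistatin without doxycycline. At 13 shared sites its difference was -0.128 (SD 0.00439) to the untreated group and 1.12 (SD 0.184) to the group in the header, so it was read as untreated, which is how the labels assign it.

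Limma 3.58.1 in R 4.3.3 tested genes whose normalised counts averaged at least 10 over 6 libraries, on log2(normalised count + 1), with a trend and Benjamini-Hochberg adjustment over all genes. This scale understates the change of low genes. Blebbistatin and Y27632 were compared from the recovered reads by the quasi-likelihood test of edgeR 4.0.16 with TMM scaling. DESeq2 1.42.0 was an alternative. Scripts were tested on simulated data. The labels give no batch. Replicate pairs differed by more than sampling noise (chi-square per degree of freedom 2.63 to 8.06). Gene names matched the reference for 93.1% of the table and for all 9 channel genes. Named genes are the 9 channels, up to 3 called genes per list and contrast with the largest absolute change and a mean of at least 100, the 2 most alike genes per called channel, overlapping genes and every listed site. Some cell markers, Mcoln3 and genes that stand in several lists are named besides. The channel genes and gene lists were chosen with earlier results of these data known.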

Additional observations from a re-analysis of the deposited data

How the results depend on the processing

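Across all alternatives, 330 of the per-gene values kept direction and side of the threshold, 13 changed sign, 9 became called and 8 were no longer called. The counts of genes called stayed within 1.5 times of those given: leaving out 1 library gave 6994 to 7394 with blebbistatin, 4304 to 4839 with Y27632 and 7166 to 7985 between the inhibitors. Of the channel genes, 8 to 9 were called with blebbistatin when 1 library was left out, 0 to 2 with Y27632 and 6 to 7 between the inhibitors. With Y27632, DESeq2 called 1. The sign changes were all in genes that Y27632 did not move past the threshold. With 1 library left out the log2 change ranged from -0.08 to 0.006 for Piezo2, from -0.004 to 0.034 for Tmem63a, from -0.046 to 0.005 for Tmem63b, from -0.155 to 0.041 for Pkd1, from -0.004 to 0.012 for Pkd2 and from -0.014 to 0.052 for Panx1. With edgeR Pkd2 was at -0.001. Trpv4 ranged from -0.451 to -0.281 and Kcnk2 from -0.438 to -0.299; with DESeq2 Trpv4 had an adjusted p of 0.0501. With blebbistatin Pkd1 ranged from -0.327 to -0.136 and was called without the filter (adjusted p = 0.0487) and by edgeR (adjusted p = 0.0419). Between the inhibitors Pkd1 was called without the filter (adjusted p = 1.27e-05, edgeR); the cause was not tested. Same-numbered libraries did not deviate together (correlation -0.217 to 0.0676 over 9 pairs, and 0 of 9 libraries correlated best with their own number). With a replicate block limma called 7604 genes with blebbistatin and 4633 with Y27632, edgeR called 7700 between the inhibitors, and 9, 2 and 6 channel genes were called; Pkd1 with blebbistatin had an adjusted p of 0.0216. Restricting sites to 50000 bases from the start left 0 without doxycycline, 1 with doxycycline and 0 for blebbistatin with doxycycline, because the others lie farther away. Trpv4 and Kcnk2 had the fewest reads, which limits the precision of their values.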
